A study of Rattus norvegicus with 23 samples.

Results

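The genes of cholesterol and fatty acid synthesis were followed in the rat area postrema, a sensory organ of the medulla without a full blood-brain barrier. The set lists 30 genes by name. A probe set whose annotation carries the gene's symbol and no other was found for 29 of them, 46 probe sets in all, out of 14217 genes with such a probe set. Each gene was read by the probe set with the highest mean over the arrays, and Hmgcs1, the synthase at the entry of the mevalonate pathway, had none. By role the 29 genes comprise 5 of the mevalonate pathway, 3 that build squalene and lanosterol, 8 that turn lanosterol into cholesterol, 3 sterol regulators, 5 that supply acetyl-CoA or NADPH and assemble the fatty acid chain, and 5 that elongate or desaturate it.

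The samples were 23 Affymetrix Rat Genome 230 2.0 arrays, each of RNA pooled from 5 male rats. The spontaneously hypertensive rat (SHR), an inbred model of raised blood pressure, and the normotensive Wistar Kyoto rat (WKY) were each measured on 5 arrays, from animals 10 to 13 weeks old. Sprague Dawley rats 10 to 12 weeks old were dehydrated for 72 h (4 arrays), kept under food restriction for 48 h and titled as fasted (5 arrays), or left as controls (4 arrays). The protocol text is not the same for all controls, and only some of them carry that of the dehydrated and fasted arrays. SHR and WKY are inbred strains that differ at many loci, and the titles name no treatment for them. The values are scaled intensity signals with an array median of 39.81 to 44.48. The signals of different probe sets depend on their probes as well as on the transcript, so each gene is compared with itself across arrays. That does not remove a probe effect that differs between strains, and whether the probes read SHR and WKY alike was not tested.

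Cholesterol is made in the brain itself, because lipoproteins do not pass the blood-brain barrier, and oligodendrocytes and astrocytes are its main producers. Acetyl-CoA is built up through mevalonate and farnesyl diphosphate to squalene, closed to lanosterol and trimmed to cholesterol. The transcription factors SREBF2 and SREBF1 switch on the sterol and fatty acid enzymes when membrane sterol is low, and INSIG1 holds their precursors in the endoplasmic reticulum when it is high. In liver, fasting lowers the fatty acid enzymes and SREBF1.

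Because many of these promoters are known to be read by SREBPs together with the factors NFY and SP1, 7 promoters are shown, of genes that carry the differences described here or were highest in a dehydrated array that stands apart. RefSeq promoters of the assembly GRCr8 were at hand for 24 of the 30 genes and there was no entry for Pmvk, Fdft1, Sqle, Acaca, Fasn and Elovl6. Shown are the 250 bases before the annotated start, 5′ to 3′ on the gene's strand, with the CCAAT box (the letters of NFY sites) and GGGCGG (those of SP1 sites) in capitals on either strand. They are those of Idi1 (chr17:66547525-66547774, minus strand), Lss (chr20:12118231-12118480, minus), Cyp51 (chr4:30991443-30991692, plus), Msmo1 (chr16:29746863-29747112, plus), Insig1 (chr4:8057770-8058019, minus), Me1 (chr8:96540245-96540494, minus) and Scd (chr1:253231732-253231981, minus).
Idi1: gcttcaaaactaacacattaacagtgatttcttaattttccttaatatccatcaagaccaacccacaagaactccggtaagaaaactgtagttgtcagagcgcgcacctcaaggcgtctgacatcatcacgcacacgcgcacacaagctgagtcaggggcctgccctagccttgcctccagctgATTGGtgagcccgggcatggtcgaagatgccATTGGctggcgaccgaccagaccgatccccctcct
Lss: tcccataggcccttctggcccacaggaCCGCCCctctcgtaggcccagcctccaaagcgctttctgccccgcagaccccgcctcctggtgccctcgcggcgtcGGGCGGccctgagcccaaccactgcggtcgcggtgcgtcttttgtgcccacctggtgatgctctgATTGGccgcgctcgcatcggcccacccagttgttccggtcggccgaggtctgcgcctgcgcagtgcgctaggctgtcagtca
Cyp51: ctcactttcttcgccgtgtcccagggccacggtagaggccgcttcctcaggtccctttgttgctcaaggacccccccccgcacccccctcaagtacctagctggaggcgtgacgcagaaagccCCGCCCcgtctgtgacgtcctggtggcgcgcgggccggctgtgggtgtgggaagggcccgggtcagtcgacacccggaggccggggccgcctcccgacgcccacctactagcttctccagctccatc
Msmo1: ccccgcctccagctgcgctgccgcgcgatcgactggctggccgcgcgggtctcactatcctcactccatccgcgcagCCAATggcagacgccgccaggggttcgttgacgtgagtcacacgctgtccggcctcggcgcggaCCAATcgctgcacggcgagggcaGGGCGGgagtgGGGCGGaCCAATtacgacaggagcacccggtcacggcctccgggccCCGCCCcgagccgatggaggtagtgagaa
Insig1: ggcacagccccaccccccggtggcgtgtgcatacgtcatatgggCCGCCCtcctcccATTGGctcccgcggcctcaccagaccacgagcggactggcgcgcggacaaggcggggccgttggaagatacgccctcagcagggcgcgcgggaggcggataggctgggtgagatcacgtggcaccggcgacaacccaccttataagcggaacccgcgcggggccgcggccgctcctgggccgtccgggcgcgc
Me1: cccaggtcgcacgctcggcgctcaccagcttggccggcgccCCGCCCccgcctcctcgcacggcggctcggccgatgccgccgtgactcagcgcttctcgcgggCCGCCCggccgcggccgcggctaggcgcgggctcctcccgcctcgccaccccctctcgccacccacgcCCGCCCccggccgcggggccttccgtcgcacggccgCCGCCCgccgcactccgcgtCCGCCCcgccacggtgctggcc
Scd: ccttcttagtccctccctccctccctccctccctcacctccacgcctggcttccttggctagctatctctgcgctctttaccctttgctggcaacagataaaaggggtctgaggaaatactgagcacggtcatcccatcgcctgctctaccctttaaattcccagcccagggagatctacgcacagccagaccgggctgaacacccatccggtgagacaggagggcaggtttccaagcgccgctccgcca

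Over the whole 300 base window, which adds 50 bases after the start, CCAAT was found in 19 of the 24 promoters (79.2%), against 37.7% of all 27457 promoters of the table. GGGCGG was found in 20 of 24 (83.3%), against 34.9% of all. The E-box CACGTG was found in 3 of 24, in Elovl5, Insig1 and Sc5d (12.5%, against 6.65% of all). The letters TCACNCCAC, 1 form of the sterol element, were found in 0 of 24, against 1.13% of all. At that share, 0 matches in 24 promoters is unremarkable, and other forms of the element were not searched. All letters were searched on both strands, and ATTGG, which is CCAAT on the other strand, can share letters with GGGCGG. Idi1 holds 2 CCAAT boxes and no GGGCGG, Msmo1 holds 3 CCAAT boxes on the gene's strand, Me1 and Cyp51 hold GGGCGG but no CCAAT, and Scd holds neither. A match describes letters and is not a binding site.

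The probe sets had mean signals over the 23 arrays between 31.8 for Scd and 1703 for Fads1. Scd, a stearoyl-CoA desaturase, ran from 6.4 to 66.3, and it fell below the filter on low signal in the Sprague Dawley arrays. All 29 genes were therefore tested between SHR and WKY, and 28 among the Sprague Dawley groups. The steadiest was Acss2, which makes acetyl-CoA from acetate, between 258.7 and 334.9. For none of the 29 genes did the 10 SHR and WKY arrays lie wholly apart from the 13 Sprague Dawley arrays. The share of all probe sets that lay apart was not counted, so this says nothing particular about the set. The strains were not tested against Sprague Dawley rats, since the strain and the wording of the labelling in the labels change together and cannot be told apart.

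**Figure D1:**
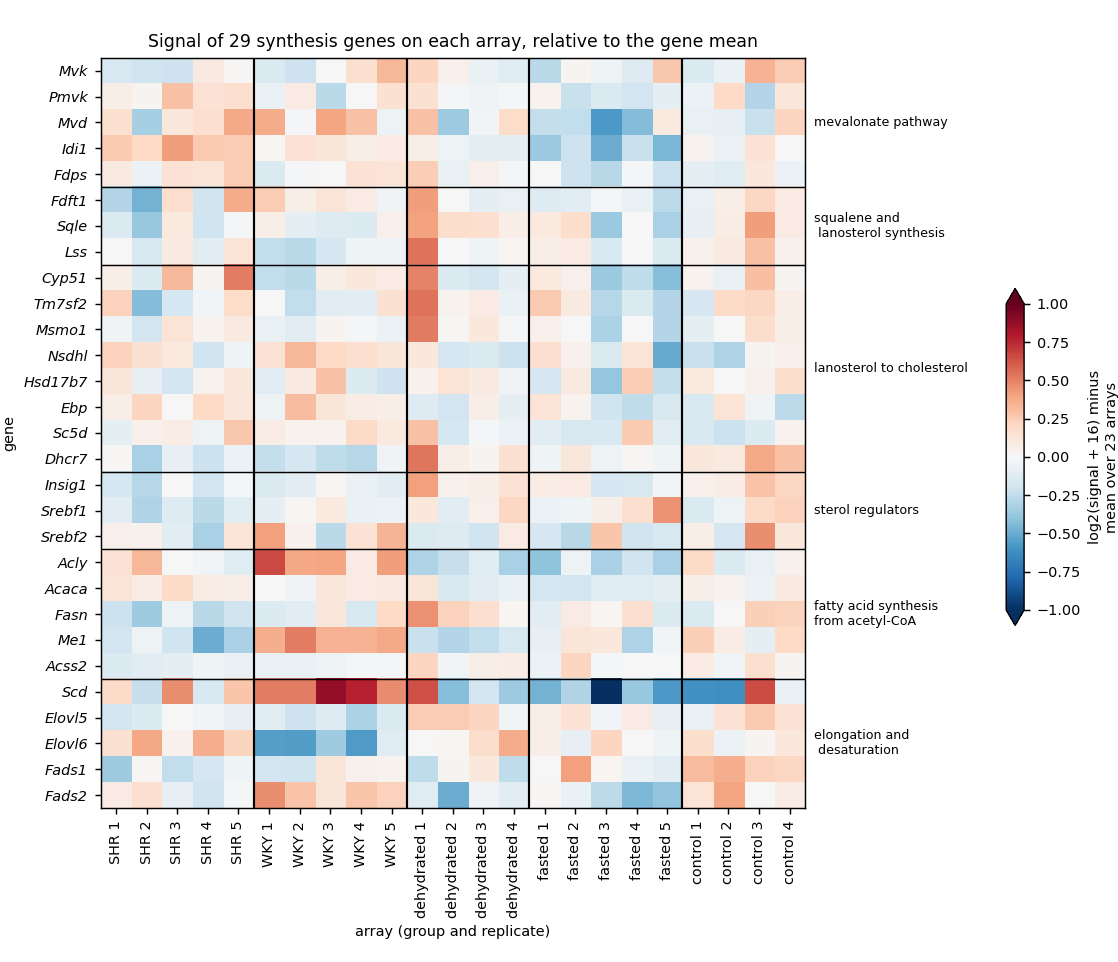
Signal of the 29 genes (rows, grouped by role) on each of the 23 arrays (columns, by group), as log2(signal + 16) minus the gene's mean over all arrays, with colour ends at 1 and -1. Me1 is low and Elovl6 high in SHR against WKY, Idi1 is low in the 5 fasted arrays, and dehydrated 1 is high for most cholesterol genes.

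In SHR against WKY, 3 fatty acid genes passed the test and no cholesterol gene did. Me1, the cytosolic malic enzyme that supplies NADPH for lipid synthesis, was 1.56-fold lower, and Scd, which puts the first double bond into saturated fatty acids, was 1.43-fold lower. Elovl6, the elongase that takes palmitate to stearate, was 1.58-fold higher. The threshold was an adjusted p below 0.05 over all 18625 probe sets tested (limma, Benjamini-Hochberg), which 5.06% of all probe sets reached, 2.17% higher and 2.88% lower in SHR. Folds are on the log2(signal + 16) scale and understate the ratio at low signal.

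Me1 had signals of 700.5, 775.4, 699.5, 565.7 and 638.3 in the SHR arrays, against 1039.1, 1151.7, 1027.1, 1028.0 and 1051.7 in the WKY arrays. The highest SHR array lay well below the lowest WKY array. The mean was 675.9 ± 78.4 in SHR and 1059.5 ± 52.5 in WKY (SD, n = 5 each), a log2 difference of -0.64 (SE 0.071, limma adjusted p = 1.33e-05). A second Me1 probe set gave 506.8 ± 65.8 in SHR and 822.5 ± 79.3 in WKY, a log2 difference of -0.69 (adjusted p = 4.46e-05), so both probe sets of this gene passed.

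Elovl6 had signals of 135.2, 162.2, 123.8, 159.0 and 143.0 in SHR, against 76.8, 76.4, 90.6, 75.9 and 109.2 in WKY. The strains did not overlap, with WKY 5 the nearest to SHR. The mean was 144.6 ± 16.1 in SHR and 85.8 ± 14.5 in WKY, a log2 difference of 0.66 (SE 0.099, limma adjusted p = 0.000367). The other Elovl6 probe set had 103.9 ± 32.8 in SHR and 82.3 ± 23 in WKY and did not pass (log2 difference 0.28, adjusted p = 0.460).

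Scd had signals of 35, 22.1, 45.9, 24.3 and 38.4 in SHR, against 47.9, 47.7, 66.3, 60.4 and 46.1 in WKY. SHR 3 came within a fraction of a unit of WKY 5, and the strains did not overlap. The mean was 33.1 ± 9.9 in SHR and 53.7 ± 9.1 in WKY, a log2 difference of -0.52 (SE 0.134, limma adjusted p = 0.0308). This call did not hold without SHR 2 (adjusted p = 0.0686), SHR 4 (0.0849), WKY 3 (0.0888) or WKY 4 (0.0796), nor without the filter (0.0672) or with all 23 arrays in 1 model (0.214). Scd2, a related desaturase gene outside the set, averaged 1577.2 ± 257.9 in SHR and 1824.1 ± 126.8 in WKY. It did not pass (log2 difference -0.22, limma adjusted p = 0.227).

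Cell markers differed between the strains as well. The summed signal of 8 area postrema neuron markers ran from 3507.6 to 4060.7 in SHR and from 3074.8 to 3410.7 in WKY, 5 of the 8 had a log2 difference above 0, and 1 passed, the neuropeptide gene Cartpt (0.48, adjusted p = 2.20e-05). The summed signal of 10 microglia and macrophage markers, none of them at 0, ran from 1329.9 to 1818.0 in SHR and from 1842.9 to 2124.1 in WKY, and that of 8 fibroblast and meningeal markers from 2344.8 to 3048.3 in SHR and from 3342.4 to 4111.7 in WKY. Of the microglial markers 8 were tested, all 8 had a log2 difference below 0 and 3 passed, and of the 8 fibroblast and meningeal markers all were below 0 and 3 passed. With the microglial mean as a covariate, Me1 had a log2 difference of -0.51 (adjusted p = 0.0862), Elovl6 0.50 (adjusted p = 0.313) and Scd -0.34 (adjusted p = 0.701), and with the fibroblast mean Me1 (-0.63, adjusted p = 0.0298) and Elovl6 (0.81, adjusted p = 0.0413) still passed while Scd did not (-0.78, adjusted p = 0.238). Over all 18625 probe sets, 64 passed higher and 104 lower with the microglial mean, and 68 and 89 with the fibroblast mean. Without a covariate 405 passed higher and 537 lower. With the fibroblast mean the differences of 3 genes that had not passed also moved, to 0.02 for Acly, -0.13 for Fads2 and 0.06 for Idi1. All 3 marker sums separate the strains without overlap. That of the area postrema markers rests mostly on Cartpt, with 2033.1 ± 156.2 in SHR and 1447.7 ± 46.9 in WKY. The mean log2 deviation of those 8 markers overlapped, from -0.13 to 0.12 in SHR and from -0.19 to 0.01 in WKY. The part of the 3 lists in the result was not tested. In pooled tissue, fewer cells of a type and less RNA per cell cannot be told apart.

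The other 7 fatty acid genes had log2 differences between -0.32 and 0.10. Acly, which makes cytosolic acetyl-CoA from citrate, had 1064.7, 1214.0, 962.3, 940.1 and 879.1 in SHR, against 1522.7, 1258.9, 1263.9, 1014.4 and 1286.8 in WKY. The strains overlapped through WKY 4, which lay below SHR 1 and SHR 2. Its log2 difference of -0.32 did not pass (SE 0.098, adjusted p = 0.0798), although it passed without SHR 2 (adjusted p = 0.0187) or without WKY 4 (adjusted p = 0.0128). It also passed with all 23 arrays in 1 model (adjusted p = 0.0350) and with the replicate number as a block (adjusted p = 0.0208). Fads2, the desaturase that starts the synthesis of long polyunsaturated fatty acids, averaged 100.6 ± 11.2 in SHR and 126.0 ± 12.3 in WKY (log2 difference -0.29, adjusted p = 0.0694), and it passed without SHR 2 (adjusted p = 0.0388). Fasn, the fatty acid synthase, averaged 330.8 ± 27.6 in SHR and 383.5 ± 46.0 in WKY (log2 difference -0.20, adjusted p = 0.191). Fads1, the partner desaturase of Fads2, gave -0.12 and Acss2 -0.05, while Acaca, the acetyl-CoA carboxylase, gave 0.05 and Elovl5, the elongase of polyunsaturated chains, gave 0.10.

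Among the 16 cholesterol genes 10 had a log2 difference above 0 and 6 below, with a median of 0.02. Idi1, the isomerase that makes dimethylallyl diphosphate, had signals of 238.2, 227.7, 267.4, 238.6 and 237.5 in SHR, against 199.0, 218.4, 215.0, 205.4 and 209.2 in WKY. These did not overlap, which in this direction held for 3.08% of all probe sets, and the log2 difference of 0.19 did not pass (SE 0.063, adjusted p = 0.0944). Cyp51, the lanosterol demethylase, averaged 328.9 ± 62.5 in SHR and 279.7 ± 37.4 in WKY (log2 difference 0.21, adjusted p = 0.368). The probe sets of Fdft1, the squalene synthase, differed in sign. The 1 read here gave 237.6 ± 62.1 in SHR and 265.4 ± 20.7 in WKY (log2 difference -0.18, adjusted p = 0.542). Another gave 77.6 ± 10.5 in SHR and 55.5 ± 9.9 in WKY and passed (0.39, adjusted p = 0.0449). The remaining 13 lay between -0.15 and 0.16.

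All 3 sterol regulators had a log2 difference below 0 in SHR and none passed. Srebf1 averaged 192.2 ± 12.9 in SHR and 217.3 ± 12.6 in WKY, with no overlap of the arrays (log2 difference -0.16, adjusted p = 0.206). Srebf2 differed by -0.17 (adjusted p = 0.503) and Insig1 by -0.05 (adjusted p = 0.776). An unadjusted p below 0.05 was reached by 2 of the 29 genes higher in SHR, beside 8.49% of all probe sets, and by 6 lower, beside 8.74%. All SHR arrays lay below all WKY arrays for 3 genes, beside 3.25% of all probe sets. Over all 29 genes the median log2 difference was -0.05, with 16 below 0, beside a median of 0.005 over all probe sets tested, of which 48.3% were below 0.

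Among 23 measured further genes of sterol and fatty acid synthesis and SREBP targets, 19 were tested. Of these 1 passed higher and none lower, beside 2.17% and 2.88% of all probe sets. It was Hacd3, a dehydratase of very long chain elongation, with 856.0 ± 69.7 in SHR and 707.3 ± 47.7 in WKY (log2 difference 0.27, adjusted p = 0.0191). Among 18 tested genes of sterol efflux and transport and of the sterol sensor LXR, 1 passed in each direction, beside the same shares. Lcat, which esterifies cholesterol on lipoproteins, averaged 878.7 ± 103.2 in SHR and 576.5 ± 69.1 in WKY (log2 difference 0.59, adjusted p = 0.00032). Lrp1, a receptor that takes up lipoproteins carrying apolipoprotein E, averaged 391.9 ± 59.8 in SHR and 559.3 ± 53.6 in WKY (log2 difference -0.50, adjusted p = 0.00227).

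**Figure D2:**
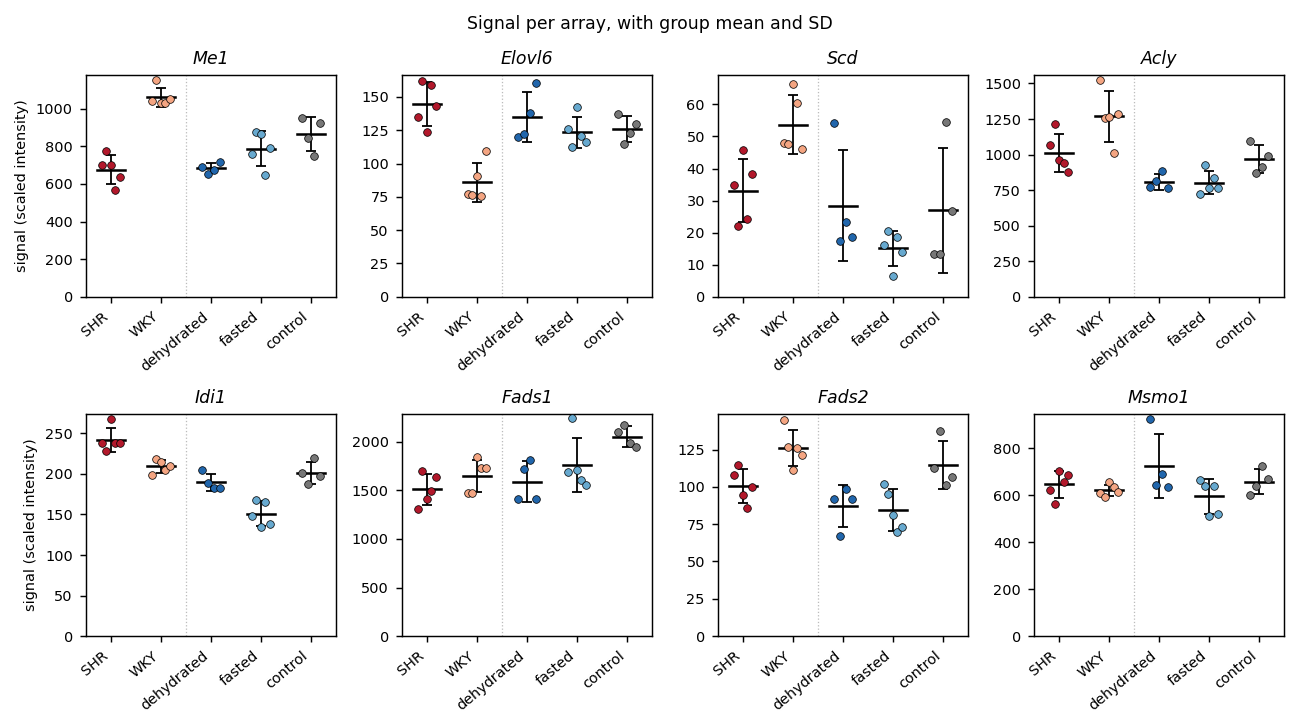
Signal per array (points) of 8 genes in the 5 groups, with the group mean as a line and the SD as a bar; each vertical axis starts at 0. Me1, Elovl6 and Scd separate SHR from WKY, Idi1 separates the fasted arrays from the other groups, and Fads1 is highest on average in the controls.

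After 48 h of food restriction, no gene of the set passed against the controls, while 25 of 28 had lower mean values. The median log2 difference was -0.15, beside 0.003 over all probe sets, of which 49% were below 0. Every one of the 9 fatty acid genes tested and 14 of the 16 cholesterol genes were below 0, with medians of -0.14 and -0.15. The exceptions were Nsdhl (0.05), Sc5d (0.06) and the regulator Srebf1 (0.06). Other tested probe sets gave 0.21 for Nsdhl, -0.08 and -0.10 for Sc5d and -0.02 for Srebf1. Over all probe sets 0.0215% passed in this comparison. The groups overlapped in the mean log2 deviation per array from the 23 array mean. For the 16 cholesterol genes it ran from -0.25 to -0.03 in fasted arrays and from -0.06 to 0.12 in controls. For the 10 fatty acid genes, with Scd, it ran from -0.18 to 0.03 in fasted arrays and from 0.02 to 0.13 in controls.

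An unadjusted p below 0.05 was reached by 7 of the 28, all lower in fasted rats, beside 3.86% of all probe sets lower and 3.34% higher. They were Idi1, Acly, Fads2, Fads1, Insig1, Acaca and Dhcr7. Idi1 had signals of 148.0, 167.5, 134.6, 165.8 and 138.4 in the fasted arrays, against 201.1, 187.6, 219.0 and 196.8 in the controls. The groups did not overlap, and the fasted arrays were below all other 18 arrays of the series. The mean was 150.9 ± 15.3 in fasted rats (n = 5) and 201.1 ± 13.2 in controls (n = 4), a log2 difference of -0.38 (SE 0.083, limma adjusted p = 0.180). A second Idi1 probe set had 105.3 ± 20.3 in fasted rats and 138.6 ± 21.0 in controls (log2 difference -0.36, adjusted p = 0.513). With all 23 arrays in 1 model Idi1 passed (adjusted p = 0.0423).

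Acly had signals of 723.5, 928.0, 762.1, 832.6 and 762.5 in fasted rats, against 1097.6, 874.0, 913.6 and 990.5 in controls. The groups overlapped through fasted 2, and the log2 difference of -0.27 did not pass (SE 0.081, adjusted p = 0.463). Fads2 had 101.8, 95.4, 81.4, 69.5 and 73.0 in fasted rats, against 112.8, 137.3, 100.9 and 106.9 in controls. They met at fasted 1 and control 3 (log2 difference -0.38, SE 0.121, adjusted p = 0.50). Acaca averaged 186.5 ± 6.0 in fasted rats and 211.8 ± 10.2 in controls without overlap (log2 difference -0.17, adjusted p = 0.669), and with Idi1 it was 1 of the 2 genes whose fasted arrays all lay below the controls, beside 1.28% of all probe sets in that direction and 1.05% in the other.

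Down the cholesterol pathway the log2 differences, fasted minus control, were below 0 at 14 of 16 enzymes. Mvk, Pmvk and Mvd, which phosphorylate mevalonate and decarboxylate it, gave -0.13, -0.11 and -0.24, and Fdps, the farnesyl diphosphate synthase, gave -0.10. Fdft1, Sqle, the squalene epoxidase, and Lss, the lanosterol synthase, gave -0.18, -0.20 and -0.15. Among the later enzymes Cyp51 gave -0.25, Msmo1, a methylsterol oxidase, gave -0.14, and Dhcr7, which makes cholesterol from its last precursor, averaged 125.1 ± 7.1 in fasted rats and 148.9 ± 16 in controls (log2 difference -0.22, adjusted p = 0.678). The second probe set of Hsd17b7, a sterol ketoreductase, had 31.4 ± 4.5 in fasted rats and 46.4 ± 5.0 in controls without overlap (log2 difference -0.40, adjusted p = 0.513), while the 1 read here gave -0.17.

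Among the regulators Insig1 averaged 273.2 ± 24.0 in fasted rats and 315.3 ± 26.0 in controls (log2 difference -0.20, adjusted p = 0.668), and Srebf2 gave -0.22 (adjusted p = 0.709). Srebf1, the liver's fasting-sensitive regulator, averaged 242.1 ± 39.7 in fasted rats and 231.7 ± 31.4 in controls (adjusted p = 0.948). Scd was not tested, with 16.2, 20.4, 6.4, 18.5 and 14.0 in fasted rats, against 13.4, 13.3, 54.5 and 26.6 in controls. The 2 lowest controls lay within the fasted range.

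The further synthesis genes and SREBP targets had 12 of 19 below 0 with a median of -0.02, and none passed. Of the 19 efflux, transport and LXR genes 15 were above 0 with a median of 0.08, and none passed. The 3 with the smallest p were Apod, an apolipoprotein of glia (1084.9 ± 188.2 in fasted rats, against 817.2 ± 105.4 in controls, log2 difference 0.39, adjusted p = 0.430), Abca1, the sterol exporter (382.2 ± 63.8, against 277.2 ± 48.4, log2 difference 0.44, adjusted p = 0.462), and Abca2, a lipid transporter of oligodendrocytes (126.3 ± 12.7, against 104.5 ± 11.7, log2 difference 0.24, adjusted p = 0.615).

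Of 8 astrocyte markers 7 were tested against the controls, 5 of them were below 0 and none passed. The mean log2 deviation of the 8 markers from the 23 array mean was -0.10 in fasted rats and 0.05 in controls, and their summed signal ran from 12554 to 15454 in fasted rats and from 12804 to 15528 in controls, with none at 0. With that mean as a covariate the median of the 28 genes was -0.09, and with only controls 3 and 4, whose protocol text equals that of the other Sprague Dawley arrays, it was -0.21. Fibroblast and meningeal markers summed to 3921 to 4448 in fasted rats and 4070 to 5146 in controls, and with their mean as a covariate Fads2 gave -0.10 (adjusted p = 0.999). Over all probe sets, 0 passed higher and 0 lower with that covariate, against 2 and 2 without it. The part of these cell markers in the result was not tested.

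**Figure D3:**
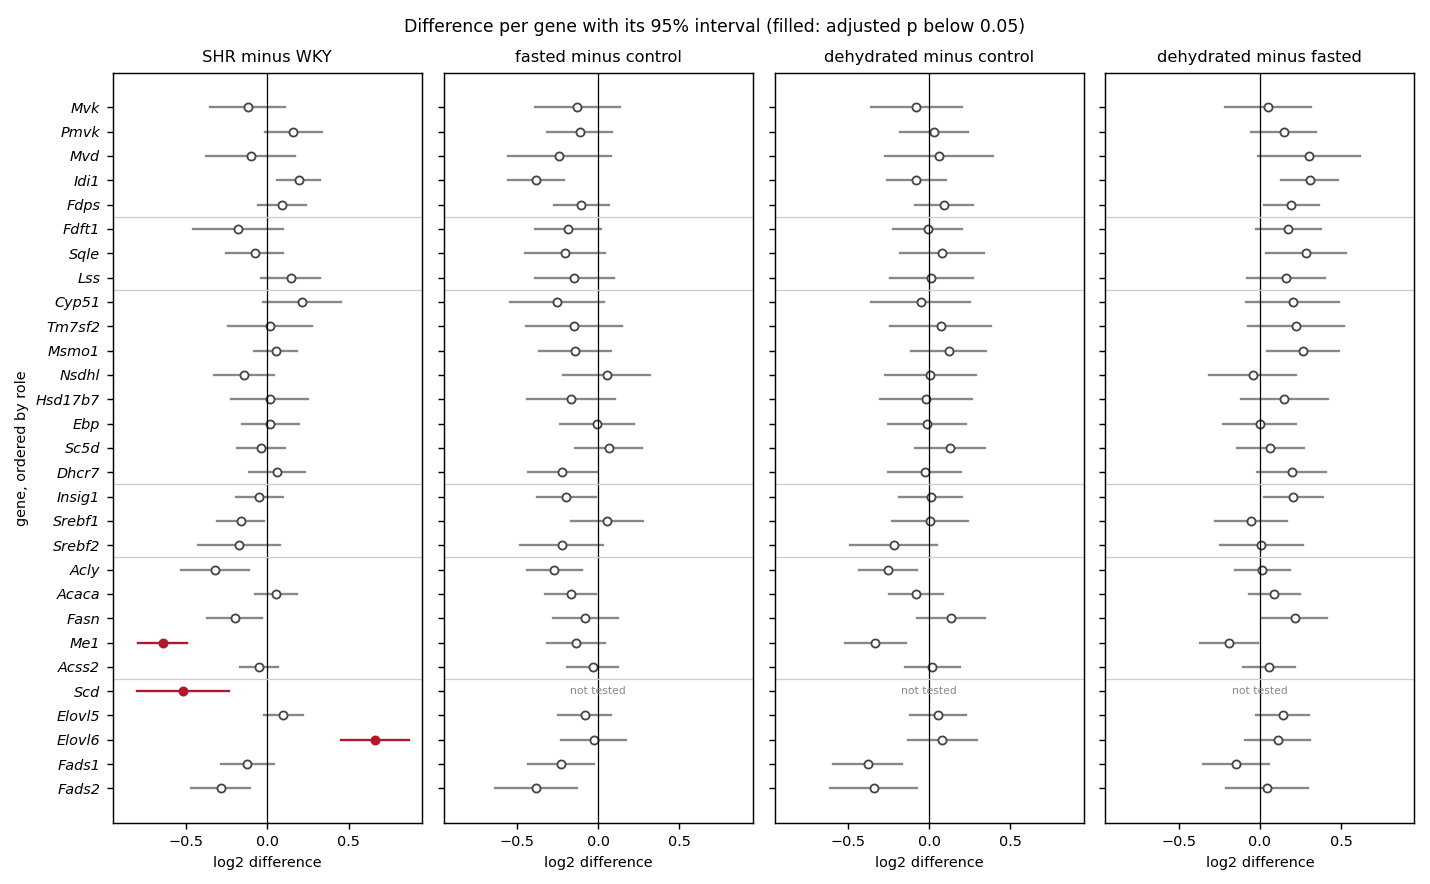
Log2 difference of each gene (point) with its 95% interval (line) in the 4 comparisons, genes ordered by role from the top. Filled red points passed at an adjusted p below 0.05, which only Me1, Scd and Elovl6 did, in SHR minus WKY; the fasted minus control points lie left of 0 for 25 of 28 genes.

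After 72 h of dehydration, no gene of the set passed against the same controls either. The 16 cholesterol genes had a median log2 difference of 0.01, 9 above 0 and 7 below, and none reached an unadjusted p below 0.05. Of the 9 fatty acid genes tested, 4 reached it, all lower in dehydrated rats: Fads1, Me1, Acly and Fads2. Over all probe sets 0.166% passed the adjusted threshold while 6.14% had an unadjusted p below 0.05 in the lower direction and 5.55% in the higher.

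Fads1 had signals of 1407.1, 1717.7, 1816.4 and 1408.6 in dehydrated rats, against 2104.9, 2177.1, 1984.0 and 1945.8 in controls. The groups did not overlap. The mean was 1587.5 ± 211.3 in dehydrated rats and 2052.9 ± 107.0 in controls (n = 4 each), a log2 difference of -0.38 (SE 0.102, limma adjusted p = 0.155).

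Me1 had 687.4, 654.7, 676.3 and 718.6 in dehydrated rats, against 949.8, 846.1, 748.7 and 923.5 in controls. These arrays did not overlap either, with control 3 the nearest (log2 difference -0.33, SE 0.090, adjusted p = 0.155), and the second probe set gave -0.25 (adjusted p = 0.396). Acly had 771.8, 816.3, 883.9 and 761.6 in dehydrated rats, against 1097.6, 874.0, 913.6 and 990.5 in controls. Dehydrated 3 lay just above control 2 (log2 difference -0.25, SE 0.085, adjusted p = 0.244). Fads2 averaged 87.2 ± 13.9 in dehydrated rats and 114.5 ± 16 in controls without overlap (log2 difference -0.34, adjusted p = 0.299). All dehydrated arrays lay below all controls for 3 of the 28 genes, beside 3.37% of all probe sets, and above them for none, beside 3.31%.

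Among the remaining fatty acid genes Fasn gave 0.14, Elovl6 0.08, Elovl5 0.06, Acss2 0.02 and Acaca -0.08. Among the cholesterol genes the highest values were those of Sc5d, a sterol desaturase (0.13), and Msmo1 (0.12), and the lowest those of Mvk (-0.08) and Idi1 (-0.08). Other tested probe sets gave -0.11 and 0.06 for Sc5d, -0.37 for Mvk and -0.14 for Idi1. Insig1 and Srebf1 differed by less than 0.01, and Srebf2 by -0.22 (adjusted p = 0.525). The second Hsd17b7 probe set again had 31.3 ± 8.9 in dehydrated rats, against the same 46.4 ± 5.0 in controls, without overlap (log2 difference -0.42, adjusted p = 0.257). Over all 28 genes the median was 0.01, with 13 below 0, beside -0.01 over all probe sets, of which 52.4% were below 0. Without dehydrated 1 the median was -0.06. With only controls 3 and 4, whose protocol text equals that of the dehydrated arrays, it was also -0.06, with 8 genes above 0 and 20 below. The part of the protocol in the result was not tested.

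None of the 19 further synthesis genes passed, and Acsl3, a fatty acyl-CoA synthetase, was the only 1 to reach an unadjusted p below 0.05 (381.9 ± 53.8 in dehydrated rats, against 308.4 ± 22.8 in controls, log2 difference 0.29, adjusted p = 0.272). Among the 19 efflux, transport and LXR genes none passed and 14 were above 0. Apod averaged 1156.6 ± 118.4 in dehydrated rats and 817.2 ± 105.4 in controls (log2 difference 0.50, adjusted p = 0.108), and Abca1 408.6 ± 68.2 in dehydrated rats and 277.2 ± 48.4 in controls (0.54, adjusted p = 0.139). Both were without overlap, as were 3 of the 19 genes in this direction, beside 3.31% of all probe sets. Fibroblast and meningeal markers summed to 3487 to 4557 in dehydrated rats and 4070 to 5146 in controls, 7 of 8 were below 0, and with their mean as a covariate Fads1 gave -0.16 (adjusted p = 0.848), Acly -0.16 (adjusted p = 0.840), Fads2 -0.02 (adjusted p = 0.992) and Me1 -0.25 (adjusted p = 0.787). Over all probe sets, 1 passed higher and 0 lower with that covariate, against 10 and 21 without it. The part of these markers in the result was not tested.

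The treatments were also set against each other, a difference in which no control value enters, although the controls share in the estimate of the spread. No gene of the set passed, and 0.0322% of all probe sets did. Of the 28 genes 23 were higher in dehydrated than in fasted rats, with a median log2 difference of 0.14, beside -0.01 over all probe sets, of which 52.7% were below 0. Without dehydrated 1 it was 0.05. Of the 7 astrocyte markers tested 5 were above 0 and none passed, with a median of 0.16, and the sum of the list ran from 13744 to 16092 in dehydrated rats and from 12554 to 15454 in fasted rats. With their mean as a covariate the median of the 28 genes was 0.09, Msmo1 gave 0.15 and Sqle 0.19, and the part of these cells in the result was not tested. The median was 0.18 for the 16 cholesterol genes and 0.05 for the 9 fatty acid genes. Per array, the cholesterol gene mean ran from -0.04 to 0.29 in dehydrated and from -0.25 to -0.03 in fasted arrays, with overlap. An unadjusted p below 0.05 was reached by 6 genes higher in dehydrated rats, Idi1, Msmo1, Sqle, Fdps, Insig1 and Fasn, and by Me1 in the lower direction, beside 4.44% of all probe sets higher and 5.56% lower.

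Idi1 had signals of 205.0, 188.9, 182.3 and 182.7 in dehydrated rats, against 148.0, 167.5, 134.6, 165.8 and 138.4 in fasted rats. It was the only gene of the set whose arrays did not overlap in this comparison, beside 1.32% of all probe sets in that direction and 1.91% in the other (log2 difference 0.31, SE 0.083, adjusted p = 0.233). Msmo1 had 926.3, 645.0, 690.6 and 633.7 in dehydrated rats, against 666.1, 641.6, 511.4, 641.5 and 520.7 in fasted rats. Dehydrated 1 stood far above the rest (log2 difference 0.27, SE 0.105, adjusted p = 0.415). Without that array the difference of Msmo1 was 0.14.

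Sqle had 307.4, 260.4, 259.2 and 239.9 in dehydrated rats, against 246.3, 260.4, 173.1, 229.8 and 180.0 in fasted rats. Here fasted 3 and fasted 5 were low and the groups overlapped (log2 difference 0.29, SE 0.118, adjusted p = 0.430). Between dehydrated rats and controls, Idi1 had a log2 difference of -0.08 with a 95% interval from -0.26 to 0.11. Me1 averaged 684.2 ± 26.6 in dehydrated rats and 787.1 ± 93.1 in fasted rats (log2 difference -0.19, adjusted p = 0.462). Acly and Fads2 had nearly equal means under both treatments, 808.4 ± 55.7 and 87.2 ± 13.9 in dehydrated rats, against 801.7 ± 80.8 and 84.2 ± 14.0 in fasted rats. The 95% interval of that difference was -0.15 to 0.18 for Acly and -0.21 to 0.29 for Fads2.

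Within the groups the signals of many cholesterol genes tended to vary together from array to array. As a description over 23 arrays, with each group's mean removed, the median Pearson correlation was 0.33 over the 120 pairs of cholesterol genes, of which 105 were above 0. It was 0.08 over the 45 pairs of fatty acid genes, 25 of them above 0, and 0.08 over the 160 pairs across both. All pairs share the arrays and their scaling, and pairs of genes outside the set were not examined for comparison. By gene, the median correlation with the other cholesterol genes ran from 0.03 for Ebp to 0.65 for Msmo1. Without dehydrated 1 the median over cholesterol pairs was 0.22, and without dehydrated 1 and fasted 3 it was 0.17, with 94 of 120 pairs above 0.

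Dehydrated 1 had the highest signal of its 4 arrays for 14 of the 16 cholesterol genes and for 4 of the 10 fatty acid genes. Lss had 134.4 there, against 87.0, 84.1 and 88.6 in the other dehydrated arrays, Cyp51 had 413.2 against 261.3, 252.8 and 270.3, and Insig1 had 377.7 against 289.5, 295.2 and 311.1. In the same array the mean log2 deviation was 0.42 for myelin and oligodendrocyte markers and 0.36 for astrocyte markers, the highest of all 23 arrays for each. The neuron marker mean, 0.24, was also the highest of the 23 arrays, and that of oligodendrocyte precursors was 0.22. Microglia and macrophage, area postrema neuron and adipocyte markers stood below 0 there, at -0.15, -0.05 and -0.04. At the other end fasted 3 had the lowest signal of its 5 arrays for 8 of the 16 cholesterol genes, and SHR 2 for 11 of 16. The cholesterol gene mean was -0.25 in fasted 3 and -0.20 in fasted 5, where astrocyte markers stood at -0.14 and -0.20 and myelin markers at 0.12 and 0.04. Fasted 2 had the lowest astrocyte mean of the 23 arrays, -0.24, with a cholesterol gene mean of -0.03. Their part in the spread was not tested.

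**Figure D4:**
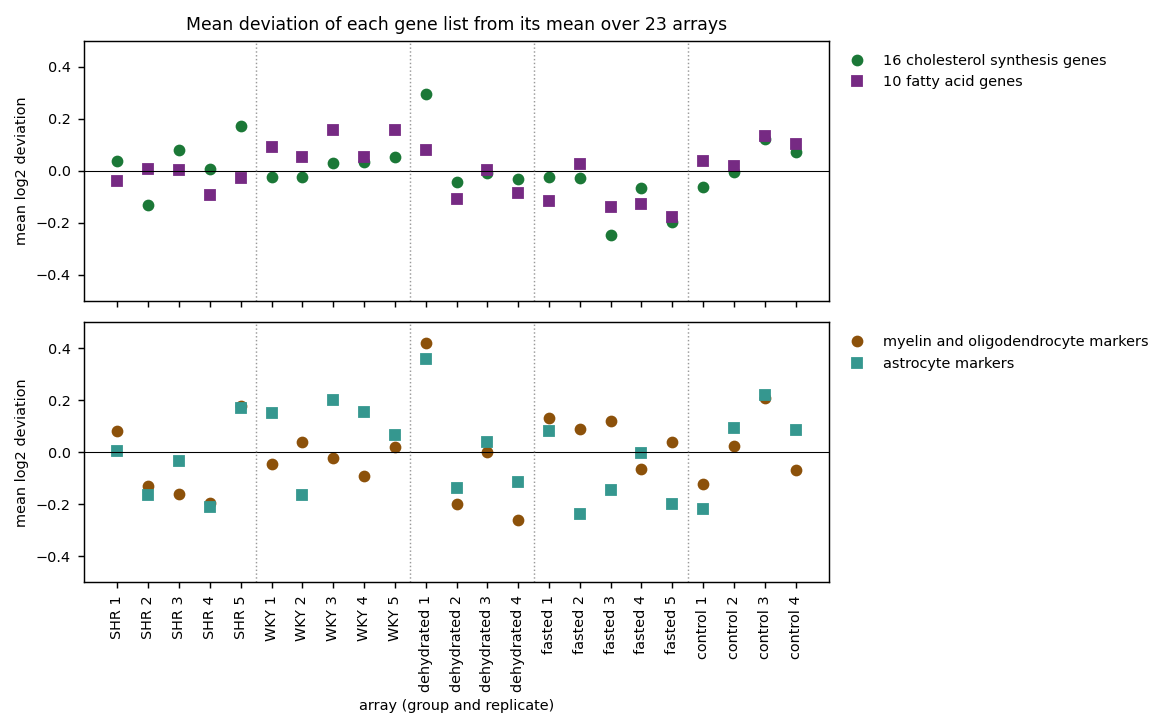
Mean log2 deviation from the 23 array mean, per array, of the 16 cholesterol and 10 fatty acid genes (upper panel) and of the myelin and astrocyte marker lists (lower panel). Dehydrated 1 is the highest array for the cholesterol genes (0.29) and for both marker lists (0.42 and 0.36).

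The tissue's own markers were present, with all 8 measured markers of area postrema neurons above the filter, and none of 5 adipocyte markers above it, by the mean over the 23 arrays. Choroid plexus and ependymal markers summed to 672.8 to 8296.8 in dehydrated, 377.2 to 6804.6 in fasted and 568.7 to 6920.2 in control arrays, and with their mean as a covariate no gene of the set gained or lost a call. No pair of arrays held identical values. The p-values measure the spread between pools of 5 animals, not between single rats.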

How the data were processed

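The authors deposited intensity signals, 1 per probe set and array, which GCOS 1.2, an Affymetrix program, produced according to the submitters' processing notes. The sources used here do not give its settings. The mean of each array without 2% at either end was 100, so that the deposited values were not normalized further. On log2(signal + 16), control probe sets and those with a mean below the 40th percentile in a fit were left out, which kept 18625 of 31099. SHR and WKY were fitted on 10 arrays and Sprague Dawley rats on 13, in 1 model with 3 contrasts, with limma 3.58.1 in R 4.3.3 (lmFit, eBayes with trend and robust, two-sided, Benjamini-Hochberg over all probe sets, threshold 0.05). The steps were tested on simulated data. Groups came from sample titles, and the number of arrays limits the precision.

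The genes, the related lists and the markers were chosen with earlier results of these data known. Full values are given for each gene that passed and the 3 with the smallest p in each comparison, and passing genes of the related lists are all named. Others were named after their values were seen. Same-numbered arrays of 2 groups correlated between -0.16 and 0.28, not all above 0.1, so the numbers were not taken as pairs. Between SHR and WKY, number 1 gave 0.16 and number 2 gave 0.28, above the highest with another number (0.07 and 0.13). The other numbers did not exceed theirs. With the number as a block, 454 of all probe sets passed higher and 619 lower in SHR against WKY, against 405 and 537 without it. Promoters were searched with Python 3.11.15.

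Alternatives changed the scaling (quantile), the pseudocount (1 or 64), the filter (none or the 60th percentile), the eBayes options, weights per array, the arrays fitted (all 23, the groups compared, controls 3 and 4 only, each array left out) and the use of several probe sets. Others added the replicate number as a block, the 3' to 5' ratio of Gapdh or a marker mean.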

Additional observations from a re-analysis of the deposited data

Results flagged for a closer look

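Of 145 combinations of gene and group examined with Dixon's test at the 95% level, 9 held an array far from the rest of its group, and chance marks about 1 in 20. In dehydrated 1, Lss had a signal of 134.4 (others 84.1 to 88.6), Cyp51 413.2 (252.8 to 270.3) and Pmvk 189.7 (165.2 to 167.1), and in dehydrated 4 Elovl5 had 762.3 (903.0 to 929.2). In fasted rats Sc5d had 401.0 in array 4 (others 294.4 to 307.3), Srebf2 159.8 in array 3 (104.2 to 114.0), and in array 2 Fads1 had 2241.3 (1557.5 to 1710.2) and Acss2 334.9 (273.9 to 286.9). In WKY 2, Me1 had 1151.7 (others 1027.1 to 1051.7), on the far side from SHR.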

How the results depend on the processing

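Of 3304 recomputed differences of the genes, 3285 kept their direction and side of the threshold or had no call before and after, 12 lost a call, 7 gained 1 and none that was called turned its sign; 165 without a call changed sign. The number of genes past the threshold between SHR and WKY was 3, ran from 2 to 4 when each array was left out, and was 0 with the microglia and macrophage mean as a covariate, an alternative chosen after seeing the data like the other marker covariates except myelin. With that microglial covariate, 64 of all probe sets passed higher and 104 lower, against 405 and 537 without it. With the replicate number as a block the number of genes was 4, with Acly added. With the astrocyte mean Cyp51 passed (adjusted p = 0.0466) and Scd did not (adjusted p = 0.132), and with the Gapdh ratio Scd did not (adjusted p = 0.0647). Scd was not tested under the 60th percentile filter, and Me1 and Elovl6 passed under every alternative except the microglial covariate. Fasted against control the count was 1 with all 23 arrays in 1 model and 0 otherwise, and it was 0 in both other comparisons under every alternative run. The median of the genes ran from -0.21 to -0.09 for fasted minus control, from -0.06 to 0.04 for dehydrated minus control, from 0.05 to 0.17 for dehydrated minus fasted and from -0.09 to 0.02 for SHR minus WKY. The cause of these changes was not tested. Low signals near background limit Scd, Mvd and Hsd17b7.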
